A study of Mus musculus with 6 samples.

Results

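The genes described here are the metallothioneins and the genes of cellular zinc transport and zinc sensing in kidney fibroblasts. They were chosen by name from the deposited table of fibroblast transcripts, and 7 of its 34745 genes belong to the set: Mt1, Mt2, Mtf1, Slc30a1, Slc39a8, Slc39a14 and Slc39a10. All 7 had enough counts to be among the 13088 genes tested. RNA was sequenced from WT primary mouse renal fibroblasts, the cells of the kidney interstitium that make collagen and other matrix, isolated by enzyme digestion. In the study these cells were kept alone (3 libraries) or for 24 h beneath an insert that held Th17 cells (3 libraries), and the comparison asked what the presence of the T cells changed in the fibroblasts. The insert had 0.4 µm pores, so the cell types shared medium but were not in contact. The coculture began after the fibroblasts had attached for 6 h, and the fibroblasts alone in the lower chamber were harvested. The Th17 cells, helper T cells that secrete interleukin-17, had been induced from CD4+ T cells with IL-1β, IL-6, IL-23 and an antibody to IFN-γ on plates coated with antibodies to CD3 and CD28. Insert culture without T cells is not described for the fibroblasts kept alone, and the animals' age is not given in the sources used here. The sources do not say either whether each library had its own mouse or culture, so errors and p-values measure the spread between these libraries, which may be technical.

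Metallothioneins are small cysteine-rich proteins that bind zinc and copper, and Mt1 and Mt2 are the forms made in most tissues. When free zinc rises, the zinc-finger factor MTF-1, encoded by Mtf1, binds metal response elements in the promoters of Mt1, Mt2 and Slc30a1 and raises their transcription. Slc30a1 encodes ZnT1, which exports zinc across the plasma membrane, whereas Slc39a8, Slc39a14 and Slc39a10 encode the importers ZIP8, ZIP14 and ZIP10. ZIP8 and ZIP14 also carry iron, manganese and cadmium. Metallothionein genes and Slc39a14 are known acute-phase genes of the liver that respond to IL-6, and metallothionein genes also respond to glucocorticoids.

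Mt1, Mt2 and Slc30a1 are genes of the set that MTF-1 is known to raise, so the stretch before an annotated start is shown for these 3 genes. Each line gives the 250 bases upstream of the RefSeq transcription start on build GRCm38.p6, 5′ to 3′ along the gene. Capitals mark matches to the core of the metal response element, searched as TGCACNC or TGCGCNC on both strands, and a match on the opposite strand appears as its reverse complement. The Mt1 window lies on the plus strand at chr8:94178839-94179088, the Mt2 window on the plus strand at chr8:94172368-94172617 and the Slc30a1 window on the plus strand at chr1:191906531-191906780.
Mt1: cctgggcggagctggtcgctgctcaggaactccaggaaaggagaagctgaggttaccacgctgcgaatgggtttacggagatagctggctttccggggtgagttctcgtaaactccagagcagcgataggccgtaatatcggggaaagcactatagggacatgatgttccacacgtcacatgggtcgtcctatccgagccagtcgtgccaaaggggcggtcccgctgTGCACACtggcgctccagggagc
Mt2: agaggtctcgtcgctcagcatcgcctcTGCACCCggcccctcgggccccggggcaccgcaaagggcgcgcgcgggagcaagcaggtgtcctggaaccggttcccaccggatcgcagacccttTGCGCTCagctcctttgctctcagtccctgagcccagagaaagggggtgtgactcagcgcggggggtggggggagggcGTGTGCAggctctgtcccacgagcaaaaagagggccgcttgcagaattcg
Slc30a1: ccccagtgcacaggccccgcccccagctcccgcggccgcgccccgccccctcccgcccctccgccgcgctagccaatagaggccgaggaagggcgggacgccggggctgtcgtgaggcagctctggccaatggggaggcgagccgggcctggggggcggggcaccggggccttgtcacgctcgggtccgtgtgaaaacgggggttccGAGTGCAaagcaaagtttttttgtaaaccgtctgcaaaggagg

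In windows that also took in the 50 bases after the start, Mt2 held 4 cores, Mt1 held 3 and Slc30a1 held 2. Among 32851 RefSeq windows of 300 bases, 25.7% held at least 1 core, 7.11% at least 2, 1.97% at least 3 and 0.517% at least 4. The upstream core of Mt1 began 23 bases before the start, and those of Mt2 began 223, 128 and 50 bases before it. Windows were found for 6 of the 7 genes. Mtf1 and Slc39a10 held no core, and 1 of the 2 Slc39a8 windows held 1. Annotated starts differ for the metallothioneins, so the windows depend on the start used. The first exon of the Mt1-201 transcript, chr8:94179082-94179338, itself held 4 cores. The Mt1 cores at bases 3 and 21 after the window's start lie in this exon, so both counts include them. The Mt1-203 and Mt1-202 transcripts begin at positions 94179211 and 94179241, downstream of the Mt1-201 start, and their first exons held 0. The first exon of Mt2-201, chr8:94172664-94172875, held 3, and Mt2-202 begins at position 94172860. The stretches printed above end before these exons or at their first bases, so they do not hold the cores of the exons. A match is a description of the letters and not a site of binding.

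The difference between the groups in this set was small, and it was not shared by all its genes. In cocultured fibroblasts the Slc39a14 transcript rose and those of Mt2 and Slc39a10 fell, while Mt1, Mtf1, Slc30a1 and Slc39a8 did not pass the test. The test was edgeR's quasi-likelihood test on the counts, with Benjamini-Hochberg adjustment over all genes tested and a threshold of 0.05 on the adjusted p. By this test 3 of the 7 genes passed, 1 higher and 2 lower, against 37.1% of all genes tested. Of all genes tested, 17.1% were higher in coculture and 20.0% lower. The share of the set that passed was thus near that of the whole table. No gene of the set passed with a fold change above 2, which 11.6% of all genes did. The median absolute log2 fold change was 0.29 over the 7 genes and 0.26 over all genes tested, and 0.64 over the genes that passed. The signed medians were −0.21 and 0.00.

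**Figure D1:**
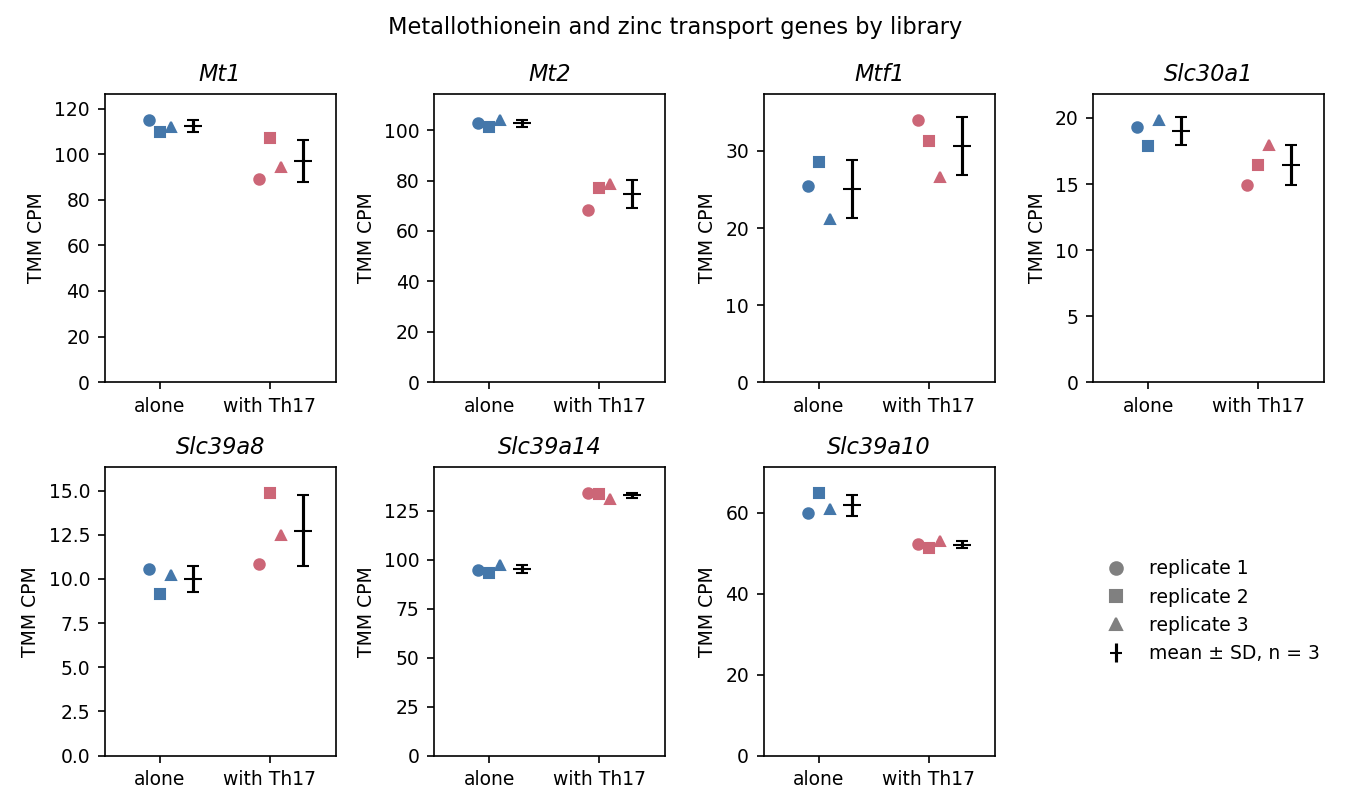
CPM (counts scaled by TMM to a common library total) of each gene in the 6 libraries, on linear axes that start at 0. Blue points are fibroblasts cultured alone and red points fibroblasts with Th17 cells, and bars give the mean ± SD of 3 libraries. Slc39a14 lies between 131 and 134 CPM in coculture, above all libraries cultured alone, and Mt2 lies lower in all 3 cocultured libraries.

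Per gene length, both metallothioneins were among the more abundant transcripts of these cells. Mt2 (ENSMUSG00000031762, chr8:94172618-94173567, plus strand) had 1324, 1281 and 1232 counts in the fibroblasts alone and 920, 983 and 1035 in coculture. Scaled by TMM to a common library total, as CPM, these were 103, 101 and 104 alone and 68.4, 77.2 and 78.7 in coculture. All 3 cocultured libraries lay below all 3 libraries cultured alone. The mean CPM was 103 ± 1.48 (SD, n = 3) alone and 74.8 ± 5.58 (SD, n = 3) in coculture. Mt2 fell by 27.2% in the fit, a log2 fold change of −0.46 (edgeR adjusted p = 0.00105, SE 0.073).

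Mt1 (ENSMUSG00000031765, chr8:94179089-94180325, plus strand), which lies next to Mt2, had 1483, 1391 and 1324 counts alone and 1196, 1362 and 1243 in coculture. Its CPM values were 115, 109.9 and 112 alone and 88.9, 107 and 94.5 in coculture. The groups did not overlap in CPM, but cocultured replicate 2 lay close to the lowest library cultured alone. The mean CPM was 112 ± 2.62 (SD, n = 3) alone and 96.8 ± 9.24 (SD, n = 3) in coculture. The log2 fold change of −0.21 (SE 0.078, 95% interval −0.39 to −0.04) did not pass the test over all genes (edgeR adjusted p = 0.0589). Without cocultured replicate 2 it was −0.29, with an edgeR adjusted p of 0.015. That was the only 1 of 17 other ways of processing under which Mt1 passed.

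Because Mt1 and Mt2 were measured in the same libraries, their ratio does not depend on library scaling. FPKM scales a count to gene length as well as to the library total, so comparisons of levels between genes depend on the lengths used. The FPKM ratio of Mt1 to Mt2 was 1.15, 1.12 and 1.11 in the libraries cultured alone and 1.34, 1.43 and 1.24 in coculture. It was higher in 3 of 3 cocultured libraries, with means of 1.13 ± 0.0244 and 1.33 ± 0.0951 (SD, n = 3 each). A 2-sided exact permutation test on the log2 ratio gave p = 0.1, the smallest that 3 against 3 libraries allow, and 0.2 after adjustment over the 2 ratios tested. The summed FPKM of both genes was 388, 377 and 387 alone and 294, 342 and 326 in coculture. On the FPKM scale Mt1 itself overlapped between groups, with 208, 199 and 203 alone and 168, 201 and 180.1 in coculture. An opposite-strand gene, Gm45774, overlaps Mt2 and shares 45.8% of its stretches of 50 bases, and whether counting used the strand was not stated. The deposited genes do not include Gm45774, so its level could not be read. The Mt1 transcripts shared no such stretch with any other gene.

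The remaining metallothionein genes were all but silent. Mt3, a form best known from brain, had 1 count in the 6 libraries together, and Mt4, a form of stratified epithelium, had 0. A floor of 3 counts corresponds to between 0.223 and 0.254 CPM in these libraries, so a count of 0 does not exclude lower levels.

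Mtf1 (ENSMUSG00000028890, chr4:124802104-124849800, plus strand), the zinc sensor, had 328, 362 and 250 counts alone and 458, 398 and 350 in coculture. These are 25.5, 28.6 and 21.1 CPM alone and 34.1, 31.3 and 26.6 CPM in coculture. The groups overlapped, since cocultured replicate 3 was below replicate 2 of the fibroblasts alone. The log2 fold change was 0.29 (SE 0.134, 95% interval −0.01 to 0.59) and did not pass (edgeR adjusted p = 0.125). On the opposite strand Mtf1 overlaps 1110065P20Rik, which had between 60 and 162 counts and shares 7.55% of the 50-base stretches of Mtf1.

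Slc30a1 (ENSMUSG00000037434, chr1:191906767-191913247, plus strand), the zinc exporter, had 249, 226 and 235 counts alone and 201, 209 and 236 in coculture. In CPM these were 19.3, 17.9 and 19.9 alone and 14.9, 16.4 and 18.0 in coculture, and the groups overlapped at their edges. The log2 fold change was −0.21 (SE 0.110, 95% interval −0.46 to 0.04) and did not pass (edgeR adjusted p = 0.169). The interval includes no difference and also a decrease of the size seen in Mt2.

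Among the importers, Slc39a14 (ENSMUSG00000022094, chr14:70303469-70351425, minus strand) showed the clearest change. It had 1220, 1183 and 1153 counts alone and 1802, 1698 and 1726 in coculture. In CPM these were 94.7, 93.4 and 97.5 alone and 134, 133 and 131 in coculture, with no overlap and little spread within either group. The mean CPM rose from 95.2 ± 2.06 to 133 ± 1.41 (SD, n = 3 each), by 39.6% in the fit, for a log2 fold change of 0.48 (95% interval 0.35 to 0.61, SE 0.057, edgeR adjusted p = 0.000188). No annotated gene overlaps it. In a list of all genes ordered by p, however, Slc39a14 stood at position 1079 of 13088.

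Slc39a10 (ENSMUSG00000025986, chr1:46807544-46892852, minus strand), another plasma membrane importer, moved the other way. It had 772, 820 and 720 counts alone and 701, 651 and 696 in coculture, or 59.9, 64.8 and 60.9 CPM alone and 52.1, 51.1 and 52.9 CPM in coculture. The groups did not overlap, and the mean CPM was 61.8 ± 2.58 alone and 52.1 ± 0.904 in coculture (SD, n = 3 each). The log2 fold change was −0.25 (edgeR adjusted p = 0.0204, SE 0.070). This call was lost with library size in place of TMM (edgeR adjusted p = 0.0627) and in 3 of the 6 fits that left out 1 library, namely alone replicate 2, alone replicate 3 or cocultured replicate 2.

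Slc39a8 (ENSMUSG00000053897, chr3:135825279-135888572, plus strand) was the least abundant gene of the set. It had 136, 116 and 121 counts alone and 146, 189 and 164 in coculture, or 10.6, 9.16 and 10.2 CPM alone and 10.9, 14.8 and 12.5 CPM in coculture. The groups did not overlap, but replicate 1 of each group differed by little. The log2 fold change of 0.35 (SE 0.146, 95% interval 0.02 to 0.68) did not pass (edgeR adjusted p = 0.0923). Without cocultured replicate 1 it was 0.45, with an edgeR adjusted p of 0.0412. In all, 5 of the 7 genes, and 50.4% of all genes tested, had CPM ranges that were separate between the groups.

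**Figure D2:**
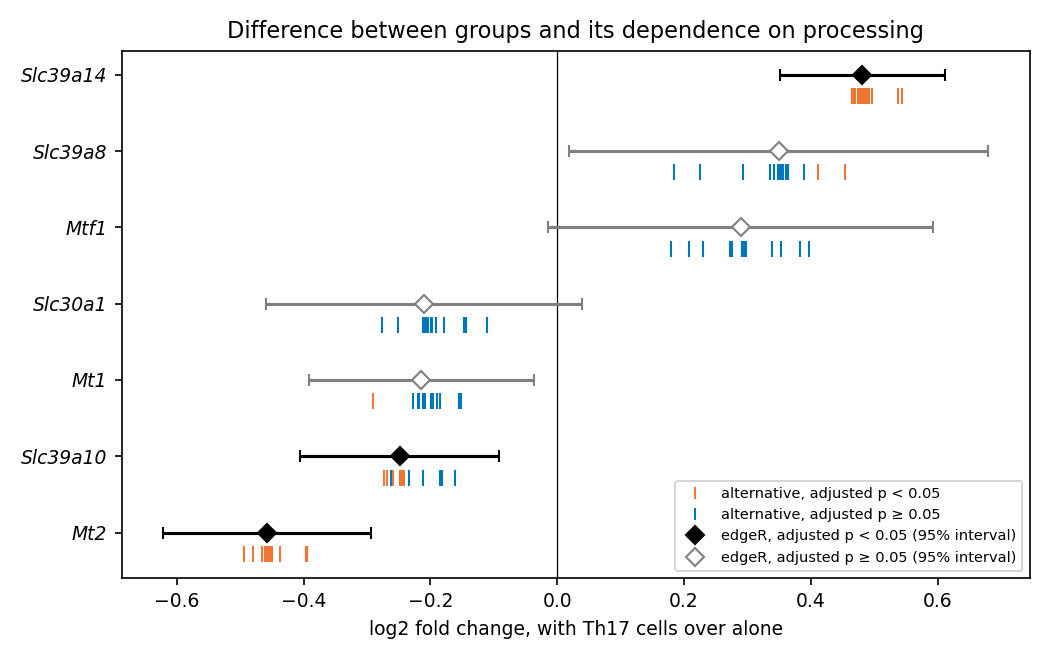
Log2 fold change of each gene (with Th17 cells over alone, horizontal axis) with its 95% interval from the edgeR fit of 3 against 3 libraries. Filled diamonds passed an adjusted p of 0.05, and ticks below give the value under 17 other ways of processing, in orange where they passed. All ticks of Slc39a14 and Mt2 are orange, and no tick lies on the other side of 0 from its diamond.

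The ratio of Slc39a14 to Slc39a10, added after their opposite changes had been seen, was 0.850, 0.776 and 0.862 in FPKM in the fibroblasts alone and 1.38, 1.40 and 1.33 in coculture. On the FPKM scale, ZIP10 transcripts were thus the higher of this pair in 3 of 3 libraries cultured alone. ZIP14 transcripts were the higher in 3 of 3 cocultured libraries. In CPM, Slc39a14 was the higher in both groups, with means of 95.2 against 61.8 alone and 133 against 52.1 in coculture. The order within the pair therefore depends on the gene lengths by which FPKM divides. The log2 FPKM ratio differed by 0.73, which restates the opposite changes of these genes and was not tested. The ratio of Slc39a14 to Slc39a8 was 9.0 ± 0.578 alone and 9.99 ± 1.58 in coculture (SD, n = 3 each), with a 2-sided exact permutation p of 0.4, also 0.4 after adjustment over the 2 ratios tested.

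Per gene length, the levels in the fibroblasts alone followed the order Mt1, Mt2, Slc39a10, Slc39a14, Slc30a1, Mtf1 and Slc39a8. The mean FPKM values alone were 203 ± 4.49 for Mt1 and 181 ± 3.0 for Mt2 (SD, n = 3 each). Among all genes these stood at positions 169 and 191, and after coculture at 182 and 267. On this scale the sensor and the transporters were far lower. Their mean FPKM alone was 7.68 for Slc39a10, 6.36 for Slc39a14, 3.14 for Slc30a1, 1.64 for Mtf1 and 0.709 for Slc39a8. In coculture the means were 183 for Mt1, 137 for Mt2, 9.28 for Slc39a14, 6.76 for Slc39a10, 2.84 for Slc30a1, 2.10 for Mtf1 and 0.944 for Slc39a8. On this scale the order was the same except that Slc39a14 passed Slc39a10, a switch that CPM did not show. In neither group did the ranges of neighbours in this order overlap. The gap to the metallothioneins also depends on gene length. In CPM, the means alone were 112 for Mt1, 103 for Mt2 and 95.2 for Slc39a14. In coculture they were 96.8, 74.8 and 133, with Slc39a14 the highest.

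**Figure D3:**
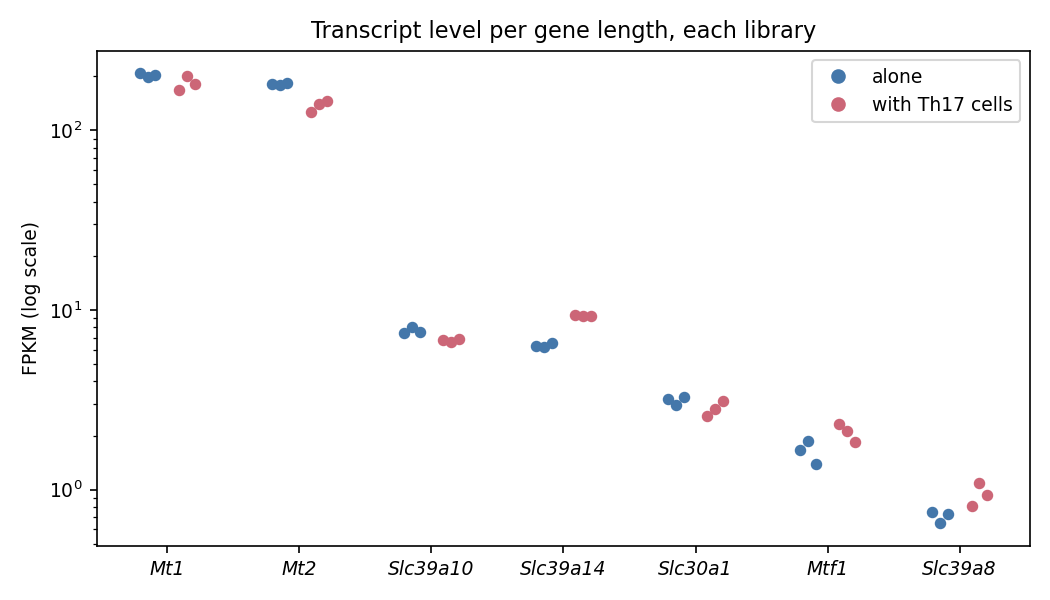
FPKM of the 7 genes in each library on a log axis, ordered by their mean in fibroblasts alone (blue, 3 libraries), with the cocultured libraries in red. The metallothioneins stand between 126 and 208 FPKM and the transporters and Mtf1 below 10. On this scale, but not in CPM, the order of Slc39a14 and Slc39a10 switches between the groups.

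The counts of the further lists are to be read against the 37.1% of all genes tested that passed, and no list was tested against another. Of the 9 further genes of the SLC30 family, 5 were tested, of which 0 were higher and 2 lower in edgeR, with a median log2 fold change of −0.02. Slc30a4, which encodes the vesicular transporter ZnT4, had 1616, 1443 and 1175 counts alone and 1096, 903 and 1106 in coculture, and fell by 0.52 on the log2 scale (edgeR adjusted p = 0.00329, SE 0.10). Slc30a5, a transporter of the early secretory pathway, fell by 0.23 (edgeR adjusted p = 0.0348, SE 0.071). Slc30a7 and Slc30a9 had log2 fold changes of 0.23 and −0.02 and did not pass. The call of Slc30a5 was lost under 11 of the 17 alternatives, 5 of them fits that left out 1 library, whereas Slc30a4 passed under all 17.

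Of the 11 further importers of the SLC39 family, 7 were tested, of which 0 were higher and 1 lower, with a median log2 fold change of −0.11. The gene that fell was Slc39a1, which encodes the plasma membrane importer ZIP1, with 2183, 2317 and 2084 counts alone and 1659, 1681 and 1875 in coculture. Its log2 fold change was −0.41 (edgeR adjusted p = 0.00176, SE 0.071). In FPKM, Slc39a1 was at 72.9 alone and 57.4 in coculture, above each of the 3 importers of the set. In mean CPM, Slc39a1 was at 176 alone, against 95.2 for Slc39a14. In coculture it was at 132.7, against 132.9 for Slc39a14, so there the ranking depends on gene length. Slc39a13, Slc39a7 and Slc39a3 had log2 fold changes of −0.15, −0.11 and −0.37 and did not pass. For Slc39a3, cocultured replicate 2 held 113 counts against 291 and 312 in the other cocultured libraries.

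Other genes known as MTF-1 targets, namely Gclc, Selenow (listed as Sepw1), Ndrg1, Csrp1 and Pgf, all passed the test, 1 higher and 4 lower, where 17.1% of all genes tested were higher and 20.0% lower, with a median log2 fold change of −0.70. Gclc, the catalytic subunit of the enzyme that starts glutathione synthesis, rose by 0.43 (edgeR adjusted p = 0.00345, SE 0.084). Ndrg1, a stress gene that hypoxia also induces, had 6177, 6551 and 5956 counts alone and 1977, 1977 and 1769 in coculture, and fell by 1.78 on the log2 scale (edgeR adjusted p = 1.53e-07, SE 0.070). Selenow, a small selenoprotein, fell by 1.40, and Csrp1, a LIM-domain protein of the actin cytoskeleton, by 0.70. Pgf, a growth factor of the VEGF family named after its value had been seen, fell by 0.47. These genes have other regulators too, and MTF-1 activity was not measured.

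Of 8 copper handling genes tested, 0 were higher and 1 lower, with a median log2 fold change of 0.05. Atp7b, a copper-exporting ATPase, had 63, 75 and 66 counts alone and 42, 47 and 28 in coculture, and fell by 0.87 on the log2 scale (edgeR adjusted p = 0.0141, SE 0.225). This call was lost without alone replicate 2, when no copper gene passed. Cox17, Slc31a1 and Atox1 had log2 fold changes of −0.46, 0.12 and 0.31 and did not pass.

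Of 9 iron genes tested, 4 were higher and 3 lower, and the median log2 fold change was 0.46. Tfrc, the transferrin receptor, had 1469, 1358 and 1197 counts alone and 2411, 1967 and 2322 in coculture and rose by 0.66 (edgeR adjusted p = 0.000183, SE 0.079). Slc11a2, the divalent metal importer DMT1, had 1145, 1137 and 995 counts alone and 1804, 1754 and 1660 in coculture and rose by 0.60 (edgeR adjusted p = 9.67e-05, SE 0.064). Fth1, the ferritin heavy chain, rose by 0.46, and Ncoa4, the receptor that takes ferritin to the lysosome, fell by 0.60. Named after their values had been seen, Ftl1 was higher by 0.72, and Ireb2 and Hfe fell by 0.26 and 0.90. The calls of Ftl1 and Ireb2 were lost under 5 and 7 of the 17 alternatives. Ferritin genes have near-identical copies elsewhere in the genome, so their counts are uncertain, and Ftl1 ranged from 7603 to 12557 counts within the fibroblasts alone.

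**Figure D4:**
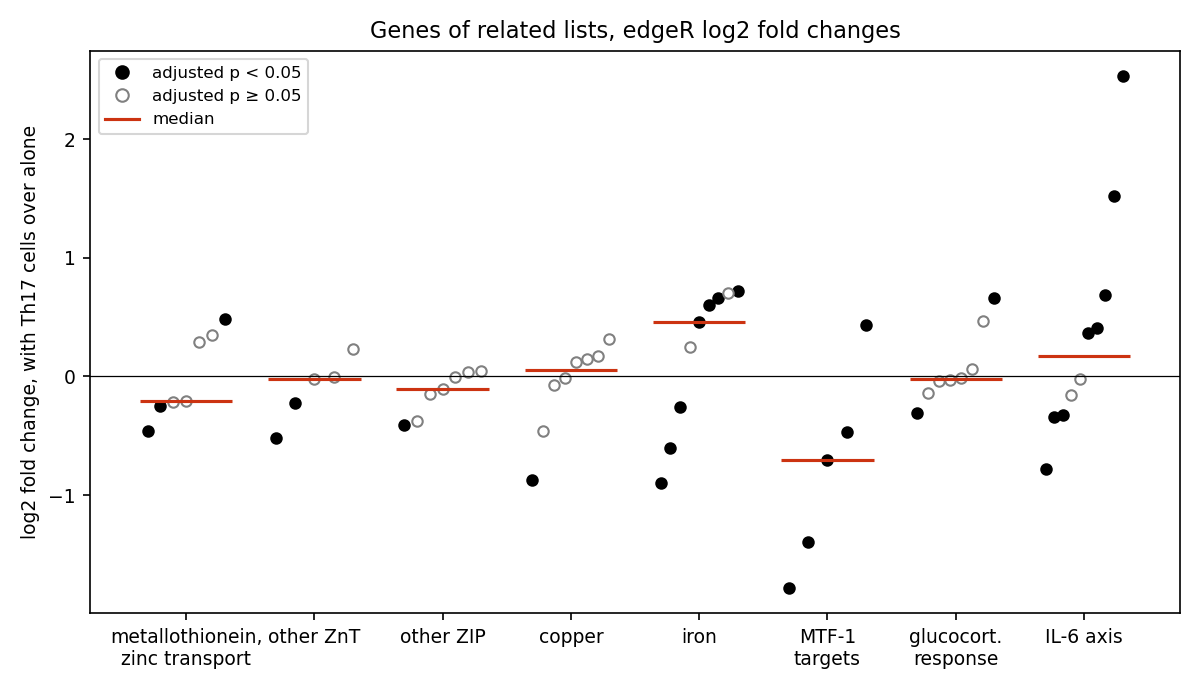
Log2 fold changes (with Th17 cells over alone, vertical axis) of the tested genes in each list, from the edgeR fit of 3 against 3 libraries. Each point is a gene, filled where its adjusted p was below 0.05, and the red line is the median of the list. The zinc and copper lists lie mostly within 0.5 of 0, while the known MTF-1 targets and the IL-6 list reach −1.78 and 2.53.

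Of the hormone and cytokine routes known to act on metallothionein genes and Slc39a14, glucocorticoid response genes showed 1 of 8 tested higher and 1 lower, with a median log2 fold change of −0.02. Errfi1, an inhibitor of the EGF receptor, rose by 0.66 and Dusp1, a MAP kinase phosphatase, fell by 0.31 (edgeR adjusted p = 3.77e-05 and 0.0435). The call of Dusp1 was lost under 10 of the 17 alternatives, 5 of them fits that left out 1 library, while Errfi1 passed under all 17. Sgk1, a kinase of ion transport, had 845, 833 and 768 counts alone and 829, 1198 and 1514 in coculture. Its groups overlapped, and its log2 fold change of 0.46 did not pass (edgeR adjusted p = 0.0794). Ddit4, an inhibitor of mTORC1, had a log2 fold change of −0.14 and did not pass.

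The IL-6 axis held 10 tested genes, of which 5 were higher and 3 lower, with a median log2 fold change of 0.17. Socs3, the feedback inhibitor that IL-6 family cytokines induce through STAT3, had 434, 459 and 416 counts alone and 2388, 2435 and 3134 in coculture, and rose by 2.53 on the log2 scale (edgeR adjusted p = 3.18e-07, SE 0.113). Lif, a cytokine of that family, had 3834, 3791 and 3485 counts alone and 11385, 10593 and 11616 in coculture, and rose by 1.52 (edgeR adjusted p = 8.71e-08, SE 0.053). Il6st, the shared receptor gp130, rose by 0.68, and Bcl3 fell by 0.78. Named after their values had been seen, Il6 was higher by 0.37 and Cebpd by 0.41, and Osmr and Stat3 fell by 0.33 and 0.34. The call of Cebpd was lost under 5 of the 17 alternatives.

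By likeness of their CPM pattern over the 6 libraries, among 9140 genes with a mean of at least 10 CPM, Mt2 was most like Irf9, Slc1a5 and Cdkn2b, with Pearson r of log2 CPM of 0.9997, 0.998 and 0.997. Slc39a14 was most like Gareml, Gdf11 and Ccl11, each at an r of 0.999. Slc39a10 was most like Tubb2b, Gnl1 and Gas5, with r of 0.997, 0.995 and 0.995. The libraries fall into the study's groups, so r mainly follows the group difference: 571 genes had an r above 0.95 with Mt2, 791 with Slc39a14 and 449 with Slc39a10. The likeness is one of shape and not of size, since Ccl11, a chemokine, had a log2 fold change of 4.65 and Slc39a14 one of 0.48.

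The label of the cells held against its markers. All 10 fibroblast markers were detected, with a summed level of 46848 to 48946 CPM alone and 23047 to 26278 CPM in coculture, and 9 of them were lower in coculture and 1, Dcn, higher. Macrophage markers were low and fell with coculture: 5 of 6 tested of 10 listed were lower, and their sum went from between 58.5 and 61.1 CPM to between 20.0 and 21.1 CPM. Adgre1 and Ptprc were at 0 in all cocultured libraries. T cell markers summed to between 2.02 and 3.32 CPM alone and 2.12 and 3.35 CPM in coculture, with Cd3d, Cd2, Il17a and Il17f at 0 in all libraries, and 0 of the 1 tested passed. Of 2 tubule markers tested 1 was lower, and the list summed to between 5.33 and 6.98 CPM alone and 4.68 and 5.25 CPM in coculture. Of 2 endothelial markers tested 1 was lower, and the list summed to between 6.79 and 7.52 CPM alone and 1.6 and 2.75 CPM in coculture. In a bulk culture, fewer cells of a type and less RNA per cell cannot be told apart. The part of these markers in the changes of the zinc genes was not tested.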

How the data were processed

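The authors filtered reads (VAHTS kit libraries, Illumina NovaSeq) with Seqtk, aligned them with HISAT2 2.0.4 to mm10 and quantified them with StringTie 1.3.3b, per the labels and the study's methods. They deposited raw counts per gene and library and, beside each count, its FPKM, which divides by gene length and by library total. Strand use and the treatment of reads that fit several genes were not stated. Library totals ranged from 12050529 to 13209581 counts, and floors cover counting error only. Of the gene identifiers, 34267 occur in GENCODE vM21 (GRCm38), and 99.9% of these overlap the position listed.

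Groups came from the sample titles. The deposited counts were tested in R 4.3.3 with edgeR 4.0.16 (filterByExpr, minimum count 10, TMM, glmQLFit, glmQLFTest) over 13088 genes, with an adjusted p below 0.05 as threshold. The biological coefficient of variation was 11.6%. CPM uses TMM library sizes. Genes named are the 7 of the set, from each further list up to 4 tested genes with the lowest p and any past 2-fold, and the 3 genes most like each gene that passed, by Pearson r of log2 CPM (prior count 2). Pgf, Ftl1, Ireb2, Hfe, Il6, Cebpd, Osmr and Stat3 fall outside that rule and were named after their values had been seen, since the counts of their lists include them. Selenow was found under its older symbol, Sepw1. The genes and lists were chosen with earlier results of these data known. Ratios of FPKM were tested with 2-sided exact permutation tests (scipy 1.17.1).

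Alternatives were relative log expression or upper quartile factors, library size only, no filter, at least 10 counts in every library, DESeq2 1.42.0, limma 3.58.1 on log2(FPKM + 1) and log2(FPKM + 0.1), a replicate block and each library left out. Offsets for GC content (13050 genes with a value) and gene length (genes binned by each) were chosen after seeing the data. Several of the fits were also run on simulated data, with planted changes larger than any seen in the set. Recovery of changes as small as those of the set was not tested.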

Additional observations from a re-analysis of the deposited data

How the results depend on the processing

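Slc39a14 (0.46 to 0.54) and Mt2 (−0.49 to −0.39) passed under all 17 alternatives, and Mtf1 and Slc30a1 under none. Slc39a10 passed under 11 of the 17, Slc39a8 under 2 and Mt1 under 1. None of the 7 genes changed direction under any alternative. With library size only, Slc39a8 passed (0.41, adjusted p = 0.0492) and Slc39a10 did not (−0.18, adjusted p = 0.0627). Slc39a10 also did not pass in limma on log2(FPKM + 1) or log2(FPKM + 0.1), at −0.16 and −0.18. With 1 library left out, the range was −0.29 to −0.16 for Mt1, 0.23 to 0.45 for Slc39a8 and −0.27 to −0.21 for Slc39a10. The count of genes of the set that were higher was then 1 to 2 and of those that were lower 1 to 2. With library size only these counts were 2 and 1, and in both limma fits the count lower was 1. Requiring a fold change above 2 left 0 and 0 of the set, and 506 higher and 1018 lower of all genes. Of all genes that passed, 53.8% were lower with TMM, 43.9% with library size only and 44.2% and 44.4% in the limma fits. The cause of these changes was not tested.

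The SLC30 list had 1 gene past the threshold with library size only, no filter, DESeq2, both limma fits and the replicate block, and 1 to 2 with a library left out. The copper list had 2 in DESeq2 and with the block, and 0 to 2 with a library left out. The glucocorticoid list had 1 with library size only, both limma fits, the block and the GC offset, and 1 to 4 with a library left out, the highest without cocultured replicate 1. The genes lost from these lists were Slc30a5, Atp7b and Dusp1. Counts of the other lists stayed within 1.5 times.

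Replicate numbers are shared by the groups, but same-numbered libraries did not deviate together (correlations of residuals 0.0157, −0.0256 and −0.0036), so the numbers were not taken as pairs. With the number as a replicate block, 2053 genes were higher and 2460 lower, and no call among the 7 genes changed. Neither offset changed a call among them. Counts of 116 to 189 for Slc39a8 limit its precision.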
